A study of Mus musculus with 10 samples.

Results

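The Zfp900-series genes are mouse genes whose symbol is Zfp followed by a number that starts with 9 and has 3 digits, with or without a final a or b. The symbol rule found 34 of the 24015 genes counted, and 323 further genes carried another Zfp number. The numbers ran from Zfp930 to Zfp964 with gaps. The genes were chosen by symbol, with measured values of serum return against original serum in view, so that comparison is given as a description only. After a filter on low counts 33 of the 34 could be tested, among 14220 genes in all. The remaining one, Zfp957, had 4 counts in 1 library of long 2i and 0 counts in the other 9 libraries, where 0 counts allow at most 3 counts or 0.108 to 0.163 CPM (the count relative to all tested counts of that library).

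Most of these genes belong to the family of KRAB zinc finger genes. Proteins of this family bind DNA through arrays of C2H2 zinc fingers, each of which reads a few bases, and many recognise retroelements. The KRAB domain recruits the corepressor TRIM28, which brings the histone H3K9 methyltransferase SETDB1 and heterochromatin proteins to the bound site. The genes lie in tandem clusters that expanded by duplication, and several clusters are recent enough to be rodent-specific. In embryonic stem cells the pathway is known for silencing endogenous retroviruses and for keeping DNA methylation at imprinted regions. Zfp932 is a member with a studied role of this kind, at endogenous retroviruses in embryonic stem cells.

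The libraries were made from total RNA of mouse ES cells with a built-in Wnt/β-catenin reporter, kept on gelatin in the presence of LIF and split about every 48 h. The 2i medium held a GSK3 inhibitor at 3 µM and an inhibitor of the ERK pathway at 1 µM. There were 5 groups of 2 libraries: serum; first 2i, which had spent 5 to 6 passages in 2i; long 2i, with more than 13; serum return, with more than 13 in 2i and then 6 in serum; and second 2i, with 13 in 2i, 6 in serum and again 4 to 5 in 2i. All groups carried the reporter and LIF, so every comparison is between reporter cells. The labels do not say that second 2i grew out of the serum return sampled here, or that the 2 libraries of a group were separate cultures. P-values therefore rest on the spread between the 2 libraries of a group, pooled over the 5 groups. Part or all of that spread may be technical.

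Gene counts were 16809070 to 27766338 per library. Axin2, a target of Wnt signalling, had 2.34 to 7.86 CPM in the serum libraries and 66.9 to 85.3 CPM in the 2i libraries. Spry4, a target of ERK signalling, had 406 to 461 CPM in serum media and 1.51 to 20.3 CPM in 2i, so both followed the labelled medium. The 8 pluripotency markers summed to 4251 to 6498 CPM, and none was at 0. Markers of other cell types were low and moved with the groups. The sum over 7 primitive endoderm markers was 36.8 to 49.6 CPM in the serum media and 4.63 to 10.7 CPM in 2i. Afp was at 0 counts in serum and serum return. Sox7 made up most of the sum in serum media, at 33.96 to 36.91 CPM there and 0.316 to 3.38 CPM in 2i. Of the 5 tested, 2 rose (Gata4 and Sox17) and 2 fell (Sox7 and Gata6) in first 2i against serum. In second 2i against serum return 0 rose and 3 fell. The sum over 8 fibroblast markers was 37.4 to 42.6 CPM in serum return, 22.5 to 26.0 CPM in serum and 7.50 to 17.9 CPM in 2i, with Postn at 0 in serum and Lum at 0 in first and second 2i. The 6 trophectoderm markers summed to 124 to 127 CPM in first 2i and 30.1 to 86.2 CPM elsewhere, with Elf5 at 0 in serum and Hand1 at 0 in all 3 groups in 2i. In first 2i most of that sum was Tfap2c, at 95.8 and 93.2 CPM. The sum over 5 neural markers, none of them at 0, was 30.2 to 62.4 CPM in 2i and 82.6 to 92.2 CPM in serum media. The 5 markers of blood and endothelium summed to 55.1 to 127 CPM, with Hbb-b1 at 0 in every group and Ptprc at 0 in serum, first 2i and second 2i. Most of that sum was Pecam1, at 48.4 to 125 CPM, lowest in serum and highest in first 2i. Cdh5 went the other way, with 3.77 to 6.41 CPM in serum media and 0 to 0.234 CPM in 2i. The part of such cells in the results below was not tested, and in bulk RNA fewer cells of a type and less RNA per cell cannot be told apart.

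The members differed widely in level. Per kilobase of transcript and averaged over the 10 libraries, Zfp961 was at 68.8 CPM, Zfp936 at 27.3, Zfp930 at 16.4, Zfp958 at 12.9 and Zfp935 at 11.3. The Zfp935 value rests on a short model of 1.63 kb, and its mean not scaled by length was 18.5 CPM. Zfp964 was the lowest of the tested members with a complete transcript model, at 0.240 CPM per kilobase. The 5 highest mean levels not scaled by length belonged to Zfp961, Zfp936, Zfp930, Zfp945 and Zfp958. Zfp961 had 196 and 190 CPM in serum, 144 and 135 CPM in first 2i, 252 and 224 CPM in long 2i, 188 and 171 CPM in serum return, and 193 and 176 CPM in second 2i. Its libraries of first 2i were the lowest and those of long 2i the highest, while those of serum return and second 2i overlapped. The group means of a tested member differed by 1.21-fold (Zfp932) to 14.7-fold (Zfp951). Of the 33 tested members 16 had their lowest mean in serum, and 10 each had their highest in first 2i and in second 2i.

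The count files hold reads assigned to genes, and 33.4 to 36.5% of the records were reads aligned to more than 1 place, which were not counted for any gene. For 13 members at least 10% of the 50-base stretches of the transcript also occur in the transcript of another gene (GENCODE, build GRCm38), so their levels are uncertain. They are Zfp931, Zfp932, Zfp934, Zfp935, Zfp936, Zfp937, Zfp944, Zfp947, Zfp955a, Zfp955b, Zfp959, Zfp960 and Zfp963. For Zfp935 the share was 100%. Zfp939 has no complete model and was not assessed. Zfp955a and Zfp955b share 98.23% of their coding sequence. Zfp934 and Zfp935 match at 92.05% of the shorter one only, the 453 coding bases of the Zfp935 model, against 1422 in Zfp934. Among the 33 members with a complete coding model, 31 held the C2H2 pattern, with 6 to 18 fingers and a median of 11. The models of Zfp935 and Zfp957 held none.

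The first question of the design was how transfer from serum to 2i changed these genes. Zfp951 rose most, by 9.47-fold, followed by Zfp947 at 5.69-fold, Zfp944 at 4.16-fold, Zfp964 at 3.90-fold and Zfp942 at 2.78-fold. Of the 33 tested members 19 rose and 3 fell, against 35.1% and 34.9% of all genes tested (edgeR's quasi-likelihood test, adjusted p under 0.05). The members' median log2 fold change was 0.32, against 0.01 over all genes. The 303 other tested genes with a Zfp number gave 157 that rose and 39 that fell with a median of 0.29, so the shift was shared with Zfp genes outside the series. Summed over the tested members, the level was 672 to 694 CPM in serum and 844 to 886 CPM in first 2i. This comparison shares the serum libraries with the comparison that was in view when the genes were chosen, as does long 2i against serum.

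Zfp951 had 3.49 and 2.76 CPM in serum, 30.6 and 29.0 CPM in first 2i, 49.2 and 42.7 CPM in long 2i, 11.7 and 10.2 CPM in serum return, and 49.6 and 41.5 CPM in second 2i. All 6 libraries in 2i lay above all 4 in serum media, and those of serum return lay above those of serum. Its log2 fold change in first 2i was 3.24 (SE 0.14, adjusted p = 3.46e-14).

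Zfp947 had 1.53 and 1.77 CPM in serum against 10.3 and 8.42 CPM in first 2i (log2 fold change 2.51, SE 0.20, adjusted p = 3.85e-10). Zfp944 went from 10.7 and 11.5 CPM to 48.1 and 44.3 (2.06, SE 0.15, adjusted p = 5.13e-08). Zfp942, a close copy of Zfp944 with 88.5% coding identity, went from 13.4 and 11.1 CPM to 35.6 and 32.7 (1.48, SE 0.12, adjusted p = 1.03e-09). No library of first 2i overlapped serum in these genes. Zfp936, the second most abundant member, had 48.9 and 44.8 CPM in serum and 119 and 116 CPM in first 2i, a 2.51-fold rise. Zfp964 was near the limit of detection, with 0.574 and 0.313 CPM in serum and 2.01 and 1.51 CPM in first 2i.

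The 3 members that fell were Zfp948, Zfp953 and Zfp961. Zfp948 had 27.4 and 27.3 CPM in serum and 18.0 and 16.4 CPM in first 2i (log2 fold change -0.67, SE 0.09, adjusted p = 2.42e-06). Zfp953 went from 22.8 ± 2.4 CPM (SD, n = 2) to 15.2 ± 1.4 CPM (-0.58, SE 0.10), and Zfp961 changed by -0.47 (SE 0.06). The libraries of both groups were separate for each of them.

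**Figure D1:**
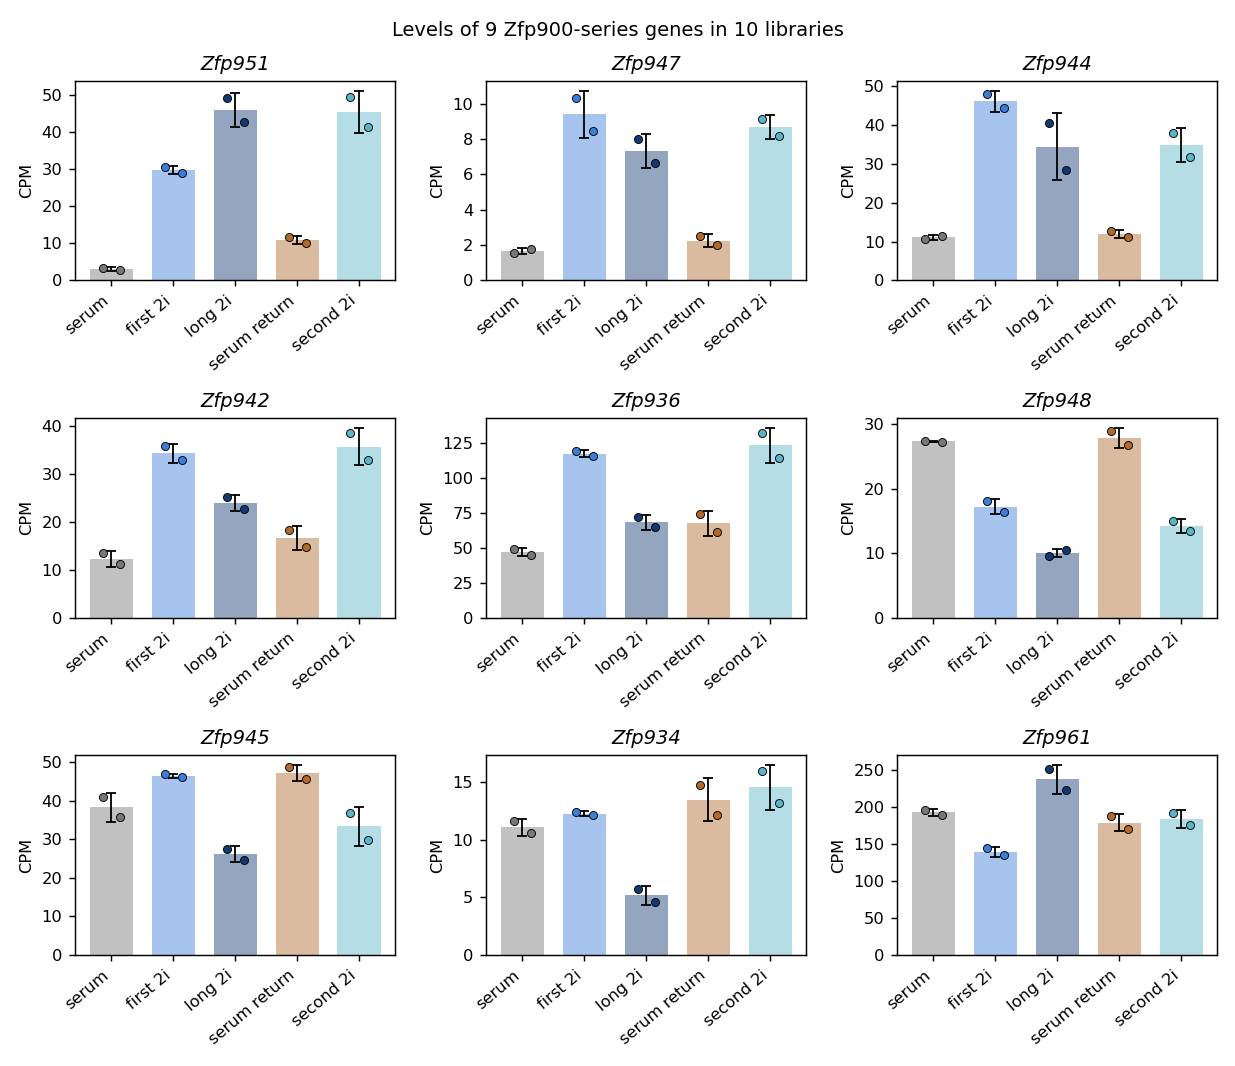
CPM (linear axis from 0) of 9 members in the 5 groups, where each point is a library, the bar the mean of 2 libraries and the whisker the SD. Zfp951, Zfp947, Zfp944 and Zfp942 are low in both serum groups and high in the 3 groups in 2i, Zfp948 is the opposite, Zfp934 is lowest in long 2i and Zfp961 highest there.

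Several of the genes that rose in 2i lie close together on chromosome 17. Members lay on 11 chromosomes, 12 of them on this one. One stretch there runs from Zfp948 to Zfp945 in RefSeq order (GRCm38.p6, used only for order and promoters because the counts were made on mm9). It holds 19 coding genes, of which 15 were tested, 7 of them members. The stretch was marked out after the fold changes had been seen. In first 2i 14 of the 15 rose and 1, Zfp948 at the edge, fell. The shares were 35.1% and 34.9% over all genes, and 51.8% and 12.9% over the Zfp genes outside the series. In second 2i against serum return 10 rose and 3 fell, namely Zfp948, Zfp945 at the other edge and Zfp760. Here 32.3% of all genes rose and 33.3% fell, and 29.0% and 25.1% of the Zfp genes outside the series. Of the other tested genes 3110052M02Rik, 2210404O09Rik and Gm4944 are Zfp983, Zfp995 and Zfp994 in RefSeq, and fall outside the series only by the older symbols in the count files. The rest have other symbols, such as Zfp758 (log2 fold change 2.28 in first 2i), Zfp820 (1.12) and Zfp229 (1.17).

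Short promoter windows are shown for the 7 members in this stretch, 5 of which carry a shared motif and rose in both rounds of 2i. Each is a part of the 300 bases around the start site given by RefSeq (250 before, 50 after). Capitals mark CACGTGAC, which contains the CACGTG core known as an E-box. The windows of Zfp944 (chr17:22361392-22361474, minus strand) and Zfp942 (chr17:21962481-21962563, minus strand) are identical over 83 bases. The window of Zfp943 (chr17:21962468-21962550, plus strand) covers nearly the same bases as that of Zfp942 on the other strand, since this pair of genes starts head to head and the promoters share 194 bases. Zfp946 (chr17:22424147-22424229, plus strand) and Zfp947 (chr17:22166011-22166093, minus strand) match the window of Zfp944 at 75.0% and 66.3% of aligned positions. Zfp945 (chr17:22867184-22867258, minus strand) and Zfp948 (chr17:21566963-21566995, plus strand) match over shorter windows, at 61.0% and 79.4%, and lack the motif. Aligned with free ends, the whole promoter of Zfp948 matches those of Zfp946 and Zfp947 at 58% and 48.67% of its bases. With that of Zfp944 only 12.67% of bases were matched, which leaves most of the promoter unaligned and is no identity.
Zfp944: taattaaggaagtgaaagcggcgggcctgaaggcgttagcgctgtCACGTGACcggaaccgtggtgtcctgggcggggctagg
Zfp942: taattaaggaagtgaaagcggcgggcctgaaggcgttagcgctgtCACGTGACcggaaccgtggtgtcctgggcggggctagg
Zfp943: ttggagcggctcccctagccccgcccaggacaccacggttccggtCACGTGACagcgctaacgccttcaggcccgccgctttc
Zfp946: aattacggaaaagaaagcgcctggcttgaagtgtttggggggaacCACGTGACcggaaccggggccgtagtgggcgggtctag
Zfp947: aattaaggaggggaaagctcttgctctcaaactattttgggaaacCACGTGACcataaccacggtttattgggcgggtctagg
Zfp945: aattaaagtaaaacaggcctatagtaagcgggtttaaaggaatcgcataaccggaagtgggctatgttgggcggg
Zfp948: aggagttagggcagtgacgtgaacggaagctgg

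These letters were noticed after the responses had been seen, and no other motif was counted. Promoters of 31 members were in the RefSeq table, 30 of them of tested members. CACGTGAC, read on both strands, stood in 6 of those 30 (20%: Zfp933, Zfp942, Zfp943, Zfp944, Zfp946 and Zfp947), in 521 of 11182 tested genes with a promoter in the table (4.66%), in 9 of 250 other tested Zfp genes (3.60%) and in 738 of all 32851 promoters (2.25%). The promoters of Zfp942 and Zfp944 match at 91.33% of bases and those of Zfp942 and Zfp943 share bases, so these are not independent cases. The coding sequences of Zfp943, Zfp946 and Zfp947 match that of Zfp944 at 80.87%, 81.07% and 82.57%, so these may not be independent either. The promoter of Zfp933, on chromosome 4, was aligned with free ends to those of Zfp942 and Zfp947. Matched bases came to 10% and 2.33% of its length, so little was aligned and no identity can be read. In the stretch all 8 tested genes with the motif rose in both rounds of 2i, and 2 of the 7 without it did, Zfp229 and 2210404O09Rik. In first 2i alone 14 of the 15 tested genes rose, so all without the motif but Zfp948 rose there too. Over all genes 23.3% rose in both rounds, and the stretch was marked out after the responses had been seen. Outside the stretch Zfp933 carries the motif and had 6.46 and 5.52 CPM in serum against 5.89 and 6.14 CPM in first 2i, with overlapping libraries. Zfp951, which rose most, lies on chromosome 5 and lacks it. Among all tested genes 40.1% of those with the motif rose in first 2i and 35.2% of those without. A match is a description of letters and shows no binding.

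**Figure D2:**
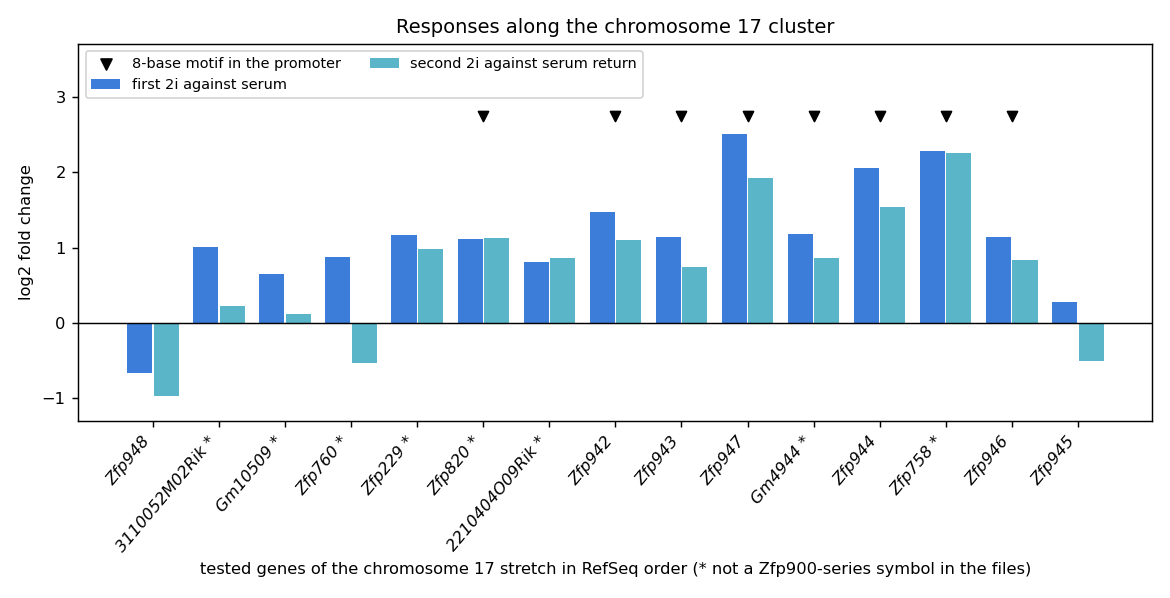
Log2 fold changes (y axis) of the 15 tested genes of the chromosome 17 stretch in RefSeq order (x axis) in first 2i against serum and in second 2i against serum return. The 8 genes with CACGTGAC are above 0 in both, as are 3110052M02Rik, Gm10509, Zfp229 and 2210404O09Rik without it. Zfp948 at the left edge is below 0 in both.

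Between first and long 2i most changes ran down. Zfp934 had 12.4 and 12.1 CPM in first 2i and 5.73 and 4.59 CPM in long 2i (log2 fold change -1.26, SE 0.15, adjusted p = 4.39e-07), its lowest level in any group. Zfp945 fell from 46.9 and 46.1 to 27.5 and 24.7 CPM (-0.83, SE 0.10), Zfp941 from 23.6 ± 1.9 to 13.4 ± 0.91 CPM (SD, n = 2; -0.82, SE 0.10) and Zfp936 from 119 and 116 to 72.2 and 64.7 (-0.78, SE 0.09). Zfp964 fell from 2.01 and 1.51 to 0.591 and 0.845 CPM (-1.28, SE 0.41), a call lost without first 2i replicate 1 or without long 2i replicate 1. Zfp961 rose to its highest level (0.77, SE 0.07), and Zfp951 (0.62, SE 0.10) and Zfp933 (0.55, SE 0.14) rose too. Zfp956 had 20.2 and 20.1 CPM in first and 22.5 and 24.2 CPM in long 2i, a rise of 0.21 (SE 0.09) that passed narrowly (adjusted p = 0.041) and not in most other settings.

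In all 16 members fell and 4 rose, against 30.8% and 30.4% of all genes, with a median log2 fold change of -0.25. Of the other Zfp genes 128 fell and 38 rose (median -0.16). The count that fell was 9 without first 2i replicate 1 and 10 without long 2i replicate 2. The fold changes of long against first 2i use no library of serum or serum return, though the estimate of the spread does.

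Long 2i against serum left 17 members higher and 7 lower (background 35.1% and 33.9%; other Zfp genes 99 and 71). Zfp951 was 14.6-fold higher, Zfp947 4.42-fold, Zfp944 3.09-fold, Zfp942 1.94-fold and Zfp943 1.84-fold. Zfp948 was 2.73-fold lower (log2 fold change -1.45, SE 0.10), Zfp934 2.16-fold, Zfp949 1.49-fold, Zfp945 1.47-fold and Zfp940 1.44-fold. Zfp944 varied more in long 2i than elsewhere, at 40.5 and 28.4 CPM.

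On return to serum 12 members rose and 13 fell relative to long 2i (background 35.4% and 36%; other Zfp genes 110 and 90). Zfp948 rose from 9.52 and 10.5 to 29.0 and 26.8 CPM (log2 fold change 1.48, SE 0.10, adjusted p = 4.52e-11). Zfp934 rose by 1.40 (SE 0.15) to 14.8 and 12.2 CPM and Zfp949 by 1.24 (SE 0.11) from 9.52 and 8.34 to 20.4 and 21.7 CPM. Zfp945 (0.86, SE 0.10) and Zfp958 (0.67, SE 0.08) also rose. Zfp951 fell by 2.06 on the log2 scale (SE 0.11), Zfp947 fell by 1.67 (SE 0.19) and Zfp944 fell by 1.52 (SE 0.15). Zfp956 fell by 0.70 (SE 0.09) and Zfp943 fell by 0.67 (SE 0.16). The count that rose was 7 without long 2i replicate 2.

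Serum return and original serum were cultured in the same medium, and the members' levels are set side by side as a description. Zfp951 had 3.49 and 2.76 CPM in serum and 11.7 and 10.2 CPM in serum return, 3.49-fold higher (SE 0.16 on the log2 scale). Zfp949 had 13.3 and 13.2 CPM against 20.4 and 21.7 (0.67, SE 0.10), and Zfp939 had 1.96 and 2.03 against 3.12 and 2.88 (0.59, SE 0.23). These 3 were the members with separate libraries and a log2 fold change of at least 0.58. Zfp936, at 48.9 and 44.8 against 74.0 and 61.3 CPM (0.53), and Zfp958, at 30.3 and 27.8 against 41.3 and 39.4 CPM (0.47), were just below that size and are named because they come next.

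Both libraries of serum return lay above both of serum in 18 members and below in 2 (Zfp941 and Zfp961), and they overlapped in 13. The background for such separation is 33.8% of all genes above and 30.7% below. The sign of the log2 fold change was positive in 26 members and negative in 7, and the median was 0.23 against 0.02 over all genes and 0.09 over the other Zfp genes. At an adjusted p under 0.05, 10 members were higher and 0 lower in edgeR, against 16.5% and 14.5% of all genes, and 1 (Zfp941) was lower at an unadjusted p under 0.05. DESeq2 gave 7 and 0. The number higher was 4 without serum replicate 2 and 4 without serum return replicate 1. With the title series as a replicate block it was 13, and 2 were lower. Since this comparison was known when the genes were chosen, these model counts are printed for reference and nothing is read from them.

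**Figure D3:**
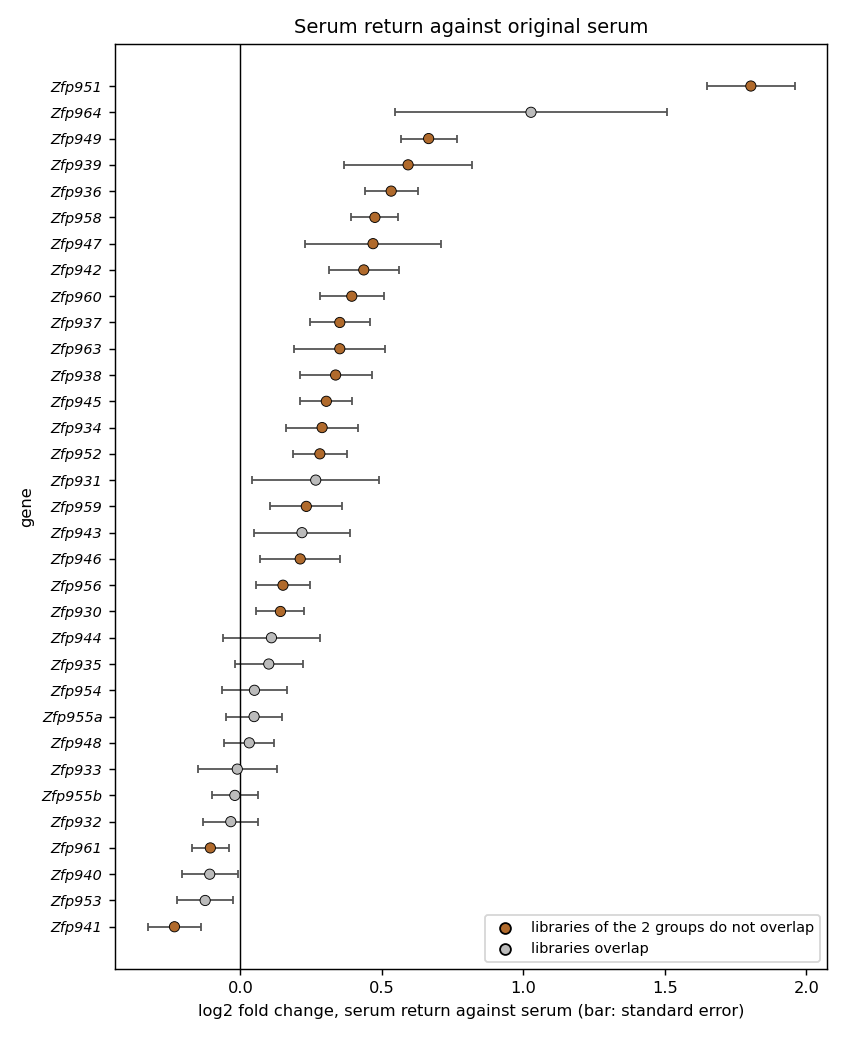
Log2 fold change of serum return against serum (x axis) for the 33 tested members, each point a gene with its standard error, coloured by whether the 2 libraries of each group overlap. Zfp951 (3.49-fold) stands apart at the right, and the remaining members lie between -0.23 and 1.03.

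A second transfer to 2i, compared with serum return, gave 14 members that rose and 8 that fell (background 32.3% and 33.3%; other Zfp genes 88 and 76). Zfp951 rose 4.15-fold (log2 fold change 2.05, SE 0.11, adjusted p = 1.24e-12), Zfp947 3.79-fold, Zfp944 2.92-fold, Zfp942 2.14-fold and Zfp931 1.86-fold. Zfp947 had 2.51 and 2.00 CPM in serum return and 9.15 and 8.17 CPM in second 2i. Zfp944 had 12.7 and 11.2 against 38.1 and 31.9 CPM. Zfp948 fell from 29.0 and 26.8 to 14.3 ± 1.1 CPM (SD, n = 2; -0.97, SE 0.10), Zfp949 from 20.4 and 21.7 to 13.1 and 13.1 (-0.68, SE 0.10), Zfp937 from 15.4 ± 1.2 to 9.97 ± 0.073 CPM (-0.64, SE 0.11), Zfp958 from 41.3 and 39.4 to 28.1 and 26.9 (-0.55, SE 0.08) and Zfp945 from 48.7 and 45.8 to 36.9 and 29.7 (-0.51, SE 0.09).

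The fold changes of the 2 rounds of 2i use different libraries, with a shared estimate of the spread. Each round shares a serum group with the comparison in view when the genes were chosen. In both rounds 13 members rose (Zfp931, Zfp935, Zfp936, Zfp941, Zfp942, Zfp943, Zfp944, Zfp946, Zfp947, Zfp951, Zfp954, Zfp956 and Zfp960), where 23.3% of all genes did. Zfp948 fell in both, as did 23.8% of all genes. In 3 members the rounds ran in opposite directions (4.39% of all genes), namely Zfp930, Zfp937 and Zfp945. Without first 2i replicate 1 neither Zfp930 nor Zfp945 passed in the first round, and Zfp945 did not without serum replicate 2. Zfp930 did not pass in the second round without serum return replicate 1 or without second 2i replicate 2. A further 5 passed in the first round only (Zfp938, Zfp939, Zfp953, Zfp961 and Zfp964), 5 in the second only (Zfp949, Zfp952, Zfp955a, Zfp958 and Zfp959) and 6 in neither (Zfp932, Zfp933, Zfp934, Zfp940, Zfp955b and Zfp963). Passing in 1 round only does not show that the rounds differ. The difference between rounds contains the comparison of the serum groups and was not tested.

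**Figure D4:**
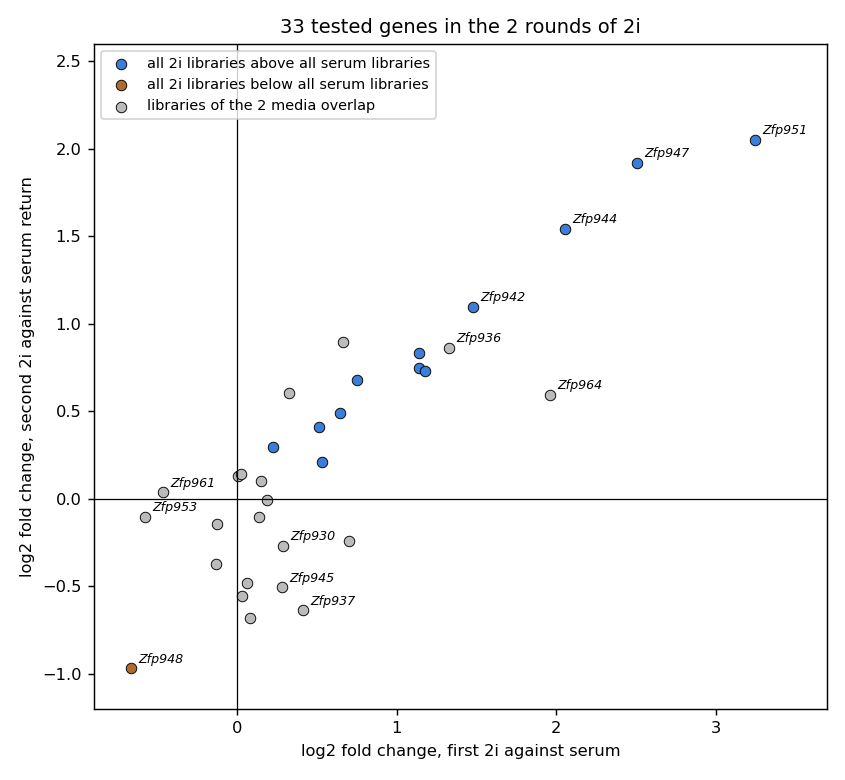
Log2 fold change in first 2i against serum (x axis) and in second 2i against serum return (y axis) for the 33 tested members, coloured by whether all 2i libraries lie above or below all serum libraries. Zfp951, Zfp947, Zfp944 and Zfp942 lie far from 0 on both axes, and Zfp930, Zfp937 and Zfp945 are positive on x and negative on y.

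Second 2i against first 2i left 4 members higher and 6 lower (background 18.1% and 19.6%; other Zfp genes 22 and 74), with a median log2 fold change of -0.05. Zfp951 (0.61, SE 0.10), Zfp931 (0.50, SE 0.20), Zfp961 (0.40, SE 0.07) and Zfp953 (0.35, SE 0.11) were higher. Zfp937 (-0.69, SE 0.11), Zfp945 (-0.48, SE 0.09), Zfp930 (-0.41, SE 0.09), Zfp944 (-0.40, SE 0.14) and Zfp940 (-0.34, SE 0.10) were among those lower. Without second 2i replicate 2 the counts were 2 and 3, and without first 2i replicate 1 the number lower was 3. Zfp931, Zfp953, Zfp944 and Zfp940 were among the calls lost when single libraries were left out.

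Over all libraries, 12 members were higher in each of the 6 in 2i than in each of the 4 in serum media, where 19.9% of all genes were: Zfp935, Zfp938, Zfp942, Zfp943, Zfp944, Zfp946, Zfp947, Zfp951, Zfp954, Zfp955a, Zfp956 and Zfp960. Zfp948 was lower in each (background 20.5%), and 20 overlapped. The number lower was 2 when serum replicate 2, serum return replicate 2 or second 2i replicate 2 was left out. Of the other 303 Zfp genes 57 were higher and 32 lower. Zfp956 shows the pattern at modest size, at 12.8 to 14.4 CPM in the serum media and 19.9 to 24.2 CPM in 2i.

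**Figure D5:**
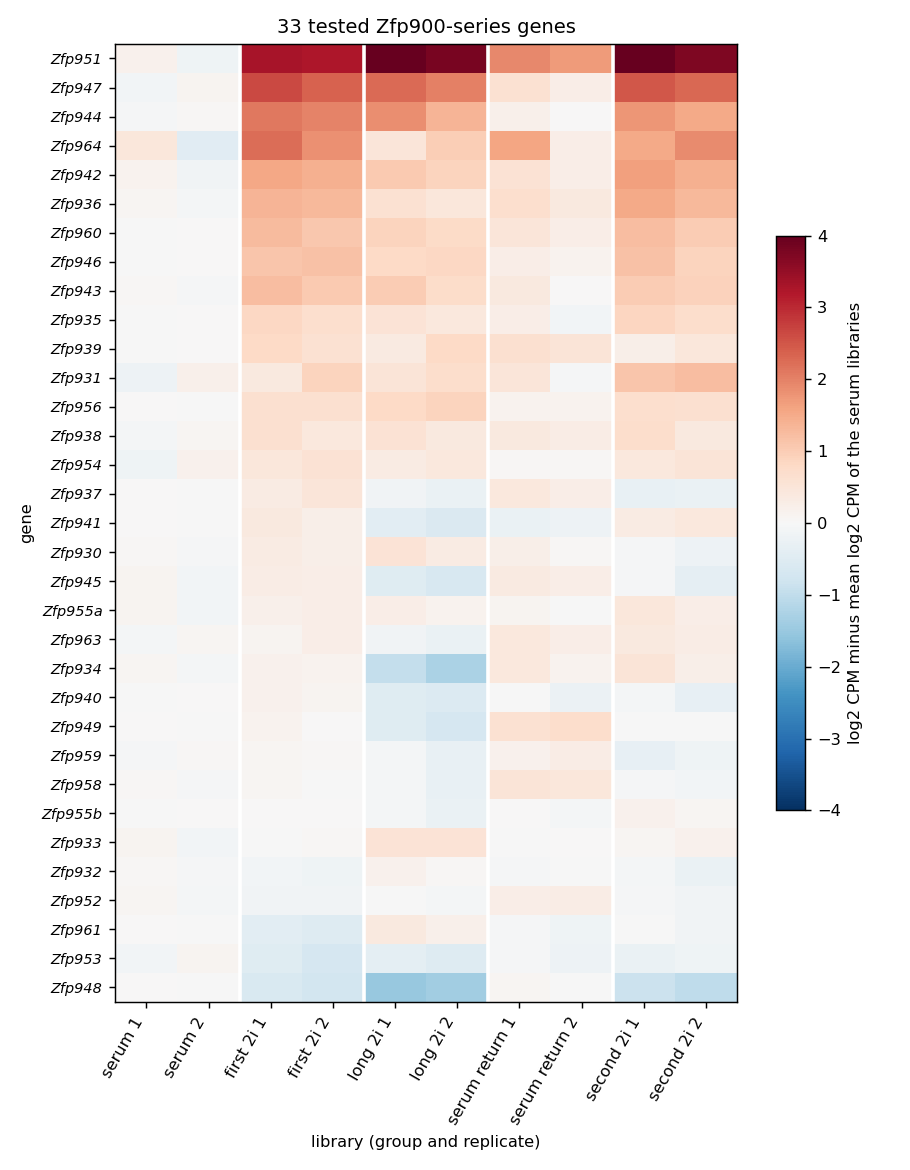
Log2 CPM of the 33 tested members (rows) in the 10 libraries (columns), relative to the mean of the serum libraries. The strongest rise is that of Zfp951 in the 6 libraries in 2i, and Zfp948 is below its serum level in the same libraries.

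Replicate 1 of a group gave more members a higher level than replicate 2. This held for 19 of 33 members in serum, 25 in first 2i, 25 in long 2i, 26 in serum return and 23 in second 2i, while 47.6 to 51.0% of all genes were higher in replicate 1. The replicate numbers follow 2 series of sample titles whose meaning the labels do not give. The part of this difference in the results was not tested beyond the fit with the title series as a block, which lost none of the members' calls. Dcn, a fibroblast marker, was at 0.473 to 2.48 CPM in every library of replicate 1 and at 0 in every library of replicate 2.

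The corepressor machinery of KRAB zinc finger proteins was counted as a list of 26 genes, all tested, which includes Dnmt1, Uhrf1, Dnmt3a, Dnmt3b and Dnmt3l. In first 2i 10 rose and 9 fell (median log2 fold change 0.11), between first and long 2i 11 rose and 2 fell (0.12), and on return to serum 6 rose and 14 fell (-0.14). The shares in first 2i, 38.5% and 34.6%, were near those of all genes tested (35.1% and 34.9%). Between first and long 2i they were 42.3% and 7.69% (all genes 30.4% and 30.8%), and on return 23.1% and 53.8% (all genes 35.4% and 36%). Long 2i against serum gave 13 higher and 6 lower (50% and 23.1%, all genes 35.1% and 33.9%). The second transfer to 2i gave 10 and 9 (38.5% and 34.6%, all genes 32.3% and 33.3%). Serum return against serum gave 4 and 7 (15.4% and 26.9%, all genes 16.5% and 14.5%). Setdb1, the H3K9 methyltransferase, had 194 and 192 CPM in serum, 225 and 228 CPM in first 2i, 339 and 337 CPM in long 2i, 181 and 181 CPM in serum return, and 263 and 256 CPM in second 2i, so it was higher in all 2i libraries. Trim28, the corepressor itself, went from 2138 ± 118 CPM (SD, n = 2) in serum to 1643 ± 81.2 in first 2i and 1781 ± 109 in long 2i. It was at 1742 ± 151 in serum return and 2148 ± 155 in second 2i, with a log2 fold change of -0.38 (SE 0.07) in the first round and 0.30 (SE 0.07) in the second. The maintenance methyltransferase gene Dnmt1 rose by 0.24 (SE 0.05) in first 2i. Uhrf1, whose product brings DNMT1 to newly replicated DNA, had 546 ± 2.44 CPM in serum and 525 ± 19.7 in first 2i (adjusted p = 0.276) and rose by 0.66 (SE 0.05) in the second round.

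The genes for de novo DNA methylation, which are part of that list, had larger fold changes in first 2i than Trim28 or Setdb1. Dnmt3l, the cofactor without catalytic activity, had 371 and 369 CPM in serum, 4.44 and 3.94 CPM in first 2i, 83.0 and 84.2 CPM in long 2i, 378 and 406 CPM in serum return, and 33.5 and 36.6 CPM in second 2i. Dnmt3b had 148 and 145 CPM in serum, 30.1 and 27.2 CPM in first 2i, 174 and 184 CPM in long 2i, 102 and 101 CPM in serum return, and 58.6 and 58.0 CPM in second 2i. Dnmt3a fell 2.16-fold in first 2i and stood at 50.3 and 54.1 CPM in serum return. Dnmt3b and Dnmt3l thus stood higher in long than in first 2i, and Dnmt3b was lower in serum return than in serum.

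A second list held 15 other KRAB zinc finger genes with a studied role, such as Zfp57, which protects imprinted methylation, and Zfp809, which silences retroviruses. In first 2i 8 rose and 1 fell (53.3% and 6.67%, all genes 35.1% and 34.9%, median log2 fold change 0.41). Between first and long 2i 9 fell (60%, all genes 30.8%) and the other 6 did not pass (median -0.32). In serum return against long 2i 7 rose and 1 fell (46.7% and 6.67%, all genes 35.4% and 36%). In second 2i against serum return 4 rose and 3 fell (26.7% and 20%, all genes 32.3% and 33.3%). Serum return against serum gave 6 higher and 1 lower (40% and 6.67%, all genes 16.5% and 14.5%, median 0.17), as a description.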

How the data were processed

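RNA-seq libraries of total RNA from mouse embryonic stem cells numbered 10, in 5 groups of 2 taken from the labels. The values are whole-number counts that the authors deposited without normalization. The genome build was mm9 and the tools were HTSeq 0.5.4p5, TopHat2 2.0.4, CASAVA 1.8.2 and DESeq2 without a version, per the submitters' processing notes. The sources used here give neither the annotation nor the strand setting, so overlapping and antisense genes are uncertain. The 5 summary rows (45.2 to 48.8% of records) were left out.

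The test was edgeR 4.0.16 (R 4.3.3) with these settings: filterByExpr by group (minimum count 10, total 15), TMM factors, and a robust quasi-likelihood model of all 10 libraries with group as the term (5 residual degrees of freedom). P-values are two-sided and Benjamini-Hochberg adjusted over 14220 genes. A gene is said to have risen or fallen at an adjusted p under 0.05. CPM are counts scaled to tested counts and TMM factor. Standard errors come from the fold change and F. There were 7 comparisons. Those that use the same libraries are not independent. The script was tested on simulated data.

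Members and gene lists were chosen with earlier results of these data known. Named members are up to 5 higher and 5 lower per comparison with the largest change, a mean of 1 CPM or more where higher, and 1 direction in all library pairs. For serum return against serum they are those with a log2 fold change of at least 0.58. The 5 most abundant are also named, and others are named where a count lists them. Promoters were RefSeq's (GRCm38.p6) and transcripts GENCODE's (GRCm38).

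Alternatives were RLE factors, no filter, the DESeq2 1.42.0 Wald test, only the groups compared, the title series (LEM, MLE) as a replicate block, and each library left out. The title series is the replicate number. Whether it pairs libraries depends on the genes used: the difference between series correlated between groups at 0.233 to 0.363 over 10450 genes above 5 CPM on average, and at 0.0994 to 0.168 over all 14220, where the lowest of 10 values is under 0.1. The second set was computed together with the blocked fits. Blocked values are therefore given where they change a count or call. No replicates agreed within sampling noise (chi-square per degree of freedom 2.76 to 3.90).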

Additional observations from a re-analysis of the deposited data

Results flagged for a closer look

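In 3 members both rounds of 2i passed the test in opposite directions in every pair of libraries. The log2 fold change of Zfp930 was 0.29 in first 2i against serum and -0.27 in second 2i against serum return. For Zfp937 it was 0.41 and -0.64, and for Zfp945 0.28 and -0.51. The difference between the rounds was not tested. Leaving out first 2i replicate 1 lost the first-round calls of Zfp930 and Zfp945, and leaving out serum replicate 2 lost that of Zfp945. Leaving out serum return replicate 1 or second 2i replicate 2 lost the second-round call of Zfp930. Zfp937 kept both calls in each of these. It shares 31.5% of its transcript's 50-base stretches with other genes, and its counts are uncertain.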

How the results depend on the processing

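Scaling by RLE moved the median of all genes by at most 0.018 (log2), and no result reversed. With the title series as a replicate block, members lower in serum return against serum went from 0 to 2 (Zfp941 and Zfp961) and those higher from 10 to 13 (Zfp930, Zfp934 and Zfp939 added). The block lost no call and gained others elsewhere, such as Zfp955a in first 2i against serum. Leaving out single libraries gave 15 to 20 members higher and 3 lower each time in first 2i against serum, 3 to 4 higher and 9 to 17 lower in long against first 2i, and 14 to 17 higher and 7 to 9 lower in long 2i against serum. It gave 7 to 13 higher and 10 to 13 lower in serum return against long 2i, and 4 to 11 higher and 0 lower each time in serum return against serum. For the second transfer to 2i there were 13 to 15 higher and 7 to 8 lower, and second against first 2i gave 2 to 4 and 3 to 6. Between media 12 to 15 were higher and 1 to 2 lower in 2i. The cause of these changes in the counts was not tested, and each such fit also has fewer libraries. DESeq2 lost 5 of the 20 calls in long against first 2i and 3 of the 10 in serum return against serum. The named changes of Zfp956 and Zfp964 (long against first 2i) and of Zfp931, Zfp953, Zfp944 and Zfp940 (second against first 2i) were lost in some settings. With 2 libraries a group, the depth limits Zfp957 and Zfp964 most. Zfp939 (39 to 87 counts a library) and Zfp931 (54 to 133) were also low, and both lost calls under DESeq2.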
